A study of Mus musculus with 8 samples.

Results

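The 10 genes described here encode transcription factors that act in adipogenesis, the formation of fat cells from progenitors. They were taken by name and not by a threshold on a measured value (*Pparg*, *Cebpa*, *Cebpb*, *Cebpd*, *Ebf1*, *Ebf2*, *Klf4*, *Klf15*, *Zfp423* and *Srebf1*), and each matched 1 Ensembl identifier among the 31053 genes in the count files. The cells were fibro/adipogenic progenitors (FAPs), interstitial mesenchymal cells of skeletal muscle, sorted as CD45- CD31- ITGA7- SCA-1+ from hind limb muscles of *mdx* mice (strain C57BL/10ScSn-Dmdmdx/J) aged 45 days. *Mdx* mice lack dystrophin and are a model of Duchenne muscular dystrophy. FAPs with high surface SCA-1 (SCA1-High-FAPs) and with low surface SCA-1 (SCA1-Low-FAPs, which the series names as the control) were each cultured for 5 days in growth medium with serum, without adipogenic induction, and 4 samples of each were sequenced. Both groups were *mdx*, so the comparison is between cell states of dystrophic muscle, and no wild type sample was analysed here. The labels name 4 mice for the 8 samples and do not say which samples share a mouse, so *p*-values measure the spread between these samples.

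Libraries were of the 3′ mRNA type, in which reads lie near the 3′ end of a transcript whatever its length, so that levels in CPM (counts scaled for the depth of each library, with TMM factors) can be set side by side between genes without dividing by length. The samples had 1880561 to 3985656 counts on genes, and 3 counts, taken as the least that such a library can show, stood at 0.753 to 1.60 CPM. This limit covers counting error only. *Ly6a*, which encodes SCA-1, went against the sort after the culture. It stood at 492, 789, 645 and 919 CPM in SCA1-High-FAPs replicates 1 to 4 and at 1100, 1080, 1156 and 1014 CPM in SCA1-Low-FAPs replicates 1 to 4. The groups did not overlap, and the level was lower in SCA1-High-FAPs (log2 fold change −0.61, SE 0.17, edgeR adjusted *p* = 0.0341). The group names below therefore refer to the surface protein at the sort, and not to the SCA-1 mRNA at the time of sequencing. *Ly6a* belongs to a family of similar genes, and reads that aligned to several places had been left out of the counts. The summed CPM of 9 FAP markers was 12940 to 15760 in SCA1-High-FAPs and 7943 to 13700 in SCA1-Low-FAPs, with *Pdgfra* at 177 to 291 CPM and 157 to 189 CPM and with *Dpp4* at 0 in every sample. Most of this sum came from the collagen genes *Col1a1* (means 7559 and 6578 CPM) and *Col3a1* (5117 and 2511 CPM). Of these markers *Dcn*, which encodes decorin, and *Col3a1*, a collagen gene, were higher in SCA1-High-FAPs (log2 fold changes 2.08 and 1.03, edgeR adjusted *p* = 0.0167 and 0.0294), without overlap, and *Pdgfra* did not pass (0.41, adjusted *p* = 0.159). Myogenic, endothelial and leucocyte markers were low: 0 to 12.5 CPM in sum for 7 myogenic genes (*Pax7*, *Myf5*, *Myod1* and *Myog* at 0), 0.483 to 7.39 CPM for 7 endothelial genes (*Emcn* and *Cldn5* at 0) and 12.5 to 48.0 CPM for 8 leucocyte genes (*Adgre1*, *Cd52* and *Tyrobp* at 0). The leucocyte sum did not overlap between the groups (25.3 to 48.0 CPM in SCA1-High-FAPs and 12.5 to 19.7 CPM in SCA1-Low-FAPs), and *Lyz2* was the gene of that list that passed the filter on low counts and the test. *Lyz2* made up most of the sum, with means of 28.7 and 10.5 CPM (log2 fold change 1.42, edgeR adjusted *p* = 0.0153). *Cd68* was higher in SCA1-High-FAPs too (2.88 and 0.477 CPM), *Csf1r* lay the other way (3.32 and 5.48 CPM), and *Ptprc* had 1 count over all samples. Pericyte and smooth muscle markers summed to 25.3 to 44.7 CPM and 27.3 to 67.0 CPM, and all 3 tested genes of that list were called, *Notch3* higher (1.54, adjusted *p* = 0.0487) and *Myh11* and *Cspg4* lower in SCA1-High-FAPs (−1.85 and −2.40, adjusted *p* = 0.0232 and 0.0415). *Notch3* had 6, 7, 18 and 14 counts in SCA1-Low-FAPs, and *Myh11* 20, 15, 16 and 6 counts in SCA1-High-FAPs. Neither would have passed the filter on low counts on the group where it was lower, so their signs were not free of the filter. Tendon markers summed to 199 to 394 CPM and 214 to 569 CPM, most of it from *Thbs4* (means 287 and 315 CPM). *Tnmd* was higher in SCA1-High-FAPs without overlap but did not pass (1.55, edgeR adjusted *p* = 0.0530). *Scx* had 0 counts in every SCA1-High-FAPs sample and 17, 3, 7 and 3 counts in SCA1-Low-FAPs, too few to be tested. *S100b*, which Schwann cells express, stood at 5.50 to 16.3 CPM and 5.45 to 8.22 CPM and did not pass (0.86, adjusted *p* = 0.280). The part of these marker differences in the results below was not tested.

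In the classical scheme of fat cell formation, C/EBP-beta and C/EBP-delta are induced first and switch on the genes of PPAR-gamma and C/EBP-alpha, which then maintain each other and drive the genes of the mature fat cell. ZFP423 and the early B cell factors EBF1 and EBF2 act before or beside this pair in commitment to the fat lineage, KLF4 and KLF15 are zinc finger factors of its early and later course, and SREBP-1, the product of *Srebf1*, controls genes of lipid synthesis. In skeletal muscle FAPs are the source of the fat that accumulates between fibres in dystrophy.

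The promoters of the genes that the results turn on are shown first. RefSeq windows on GRCm38.p6, reaching from 250 bases before to 50 bases after a transcription start, were found for 8 of the 10 genes (14 windows), and *Cebpd* and *Ebf2* had no entry. Matches on either strand to 5 short motifs were searched in the whole windows: TTGCNNAA for C/EBP factors, CCCNNGGG for EBF factors, CCNCNCCC for KLF factors, TCACNCCAC for SREBP factors and CANAGGNCA for the repeat that PPAR receptors bind. A match to letters is not a bound site. The 250 bases before the start are printed 5′ to 3′ on the strand of the gene, with every match in capitals. They are shown for *Zfp423*, *Ebf1* and *Cebpa*, which were higher in SCA1-High-FAPs, for *Klf4*, which lay in the other direction, and for the downstream start of *Pparg*, used by the isoform typical of fat cells (*Pparg2*).
Pparg, downstream start, chr6:115421816-115422065, plus strand: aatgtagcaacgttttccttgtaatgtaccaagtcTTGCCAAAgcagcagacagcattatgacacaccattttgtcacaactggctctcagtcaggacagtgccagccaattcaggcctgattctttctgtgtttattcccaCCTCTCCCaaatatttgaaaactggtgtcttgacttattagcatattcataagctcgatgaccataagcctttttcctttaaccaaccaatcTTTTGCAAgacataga
Cebpa, chr7:35119043-35119292, plus strand: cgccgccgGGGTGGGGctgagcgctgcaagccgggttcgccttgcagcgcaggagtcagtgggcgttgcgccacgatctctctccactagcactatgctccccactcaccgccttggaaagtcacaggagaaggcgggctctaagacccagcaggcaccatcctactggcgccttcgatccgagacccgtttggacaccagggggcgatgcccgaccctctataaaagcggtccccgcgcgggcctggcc
Ebf1, first window, chr11:44617850-44618099, plus strand: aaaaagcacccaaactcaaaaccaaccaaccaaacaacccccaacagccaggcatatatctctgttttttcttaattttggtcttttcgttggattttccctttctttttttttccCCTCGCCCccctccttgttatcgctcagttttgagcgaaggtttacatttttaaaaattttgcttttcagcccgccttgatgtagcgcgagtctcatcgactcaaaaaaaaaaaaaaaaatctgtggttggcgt
Zfp423, first window, chr8:87959596-87959845, minus strand: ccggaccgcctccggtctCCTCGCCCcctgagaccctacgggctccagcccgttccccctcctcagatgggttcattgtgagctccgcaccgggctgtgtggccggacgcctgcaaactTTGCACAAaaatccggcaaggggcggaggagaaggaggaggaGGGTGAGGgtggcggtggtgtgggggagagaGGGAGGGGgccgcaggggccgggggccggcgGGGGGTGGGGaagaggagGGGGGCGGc
Klf4, chr4:55532476-55532725, minus strand: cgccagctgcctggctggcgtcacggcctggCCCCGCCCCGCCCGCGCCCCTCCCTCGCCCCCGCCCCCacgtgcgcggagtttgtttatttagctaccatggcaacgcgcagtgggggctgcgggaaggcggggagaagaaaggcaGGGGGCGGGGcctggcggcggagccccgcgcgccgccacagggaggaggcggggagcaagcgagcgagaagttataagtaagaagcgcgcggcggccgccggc
The downstream *Pparg* start held 2 matches to the C/EBP motif, beginning 215 and 16 bases before the start, and the first *Zfp423* window held 1 before the start (131 bases) and 1 after it. No other window of the 8 genes held one, and 10.8% of all 32851 windows in the reference did. KLF matches were found in 13 of the 14 windows, beside 49.5% of all windows. The *Klf4* promoter held 9 of them, 7 of them overlapping in the longest stretch of capitals. EBF matches were found in 3 windows (*Cebpb*, the second of *Zfp423* and the most downstream of the *Srebf1* windows, where it overlapped a KLF match) beside 13.7% of all windows, the PPAR motif in 1 (the first of *Srebf1*) beside 7.57%, and the SREBP motif in none beside 1.24%. The printed *Pparg* window was 40.8% G and C, beside 40.0% for *Ebf1*, 66.4% for *Cebpa*, 71.6% for *Zfp423* and 74.0% for *Klf4*. The printed *Ebf1* window precedes a RefSeq start at base 44618100. The 3 annotated coding transcripts of *Ebf1* start at base 44617317, so this window lies within the annotated gene and not before it.

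The question put to the data was whether the genes of these factors differed between SCA1-High-FAPs and SCA1-Low-FAPs before any induction of fat cells. *Cebpa*, *Ebf1* and *Zfp423* were higher in SCA1-High-FAPs, by 2.08-fold, 1.77-fold and 2.92-fold, and every SCA1-High-FAPs sample lay above every SCA1-Low-FAPs sample for each of them. *Pparg* was higher on average but varied widely, *Klf4* was lower on average, and neither passed the test. The other tested genes did not pass it either, and *Klf15* was too low to be tested. All fold changes are log2 values of SCA1-High-FAPs over SCA1-Low-FAPs from edgeR's quasi-likelihood test, with positive values for genes higher in SCA1-High-FAPs. A gene was called where its log2 fold change was past 0.5 in size and its adjusted *p* under 0.05. Of the 9 factors that passed the filter on low counts, 3 were called higher and 0 lower, with a median log2 fold change of 0.73. Of all 10181 genes tested, 4.36% were called higher and 3.32% lower, with a median of −0.00029. Groups that did not overlap were seen for 7.46% of all tested genes with SCA1-High-FAPs above and for 6.67% with SCA1-High-FAPs below. Among the factors this held for the 3 called genes and for the untested *Klf15*, with SCA1-High-FAPs above in each case, and for none with SCA1-High-FAPs below. At an unadjusted *p* under 0.05, 5 of the 9 were higher and 1 (*Klf4*) lower, and DESeq2 called 4 higher and 1 lower. The mRNA was measured in bulk, where fewer cells of a type and less RNA per cell cannot be told apart.

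**Figure D1:**
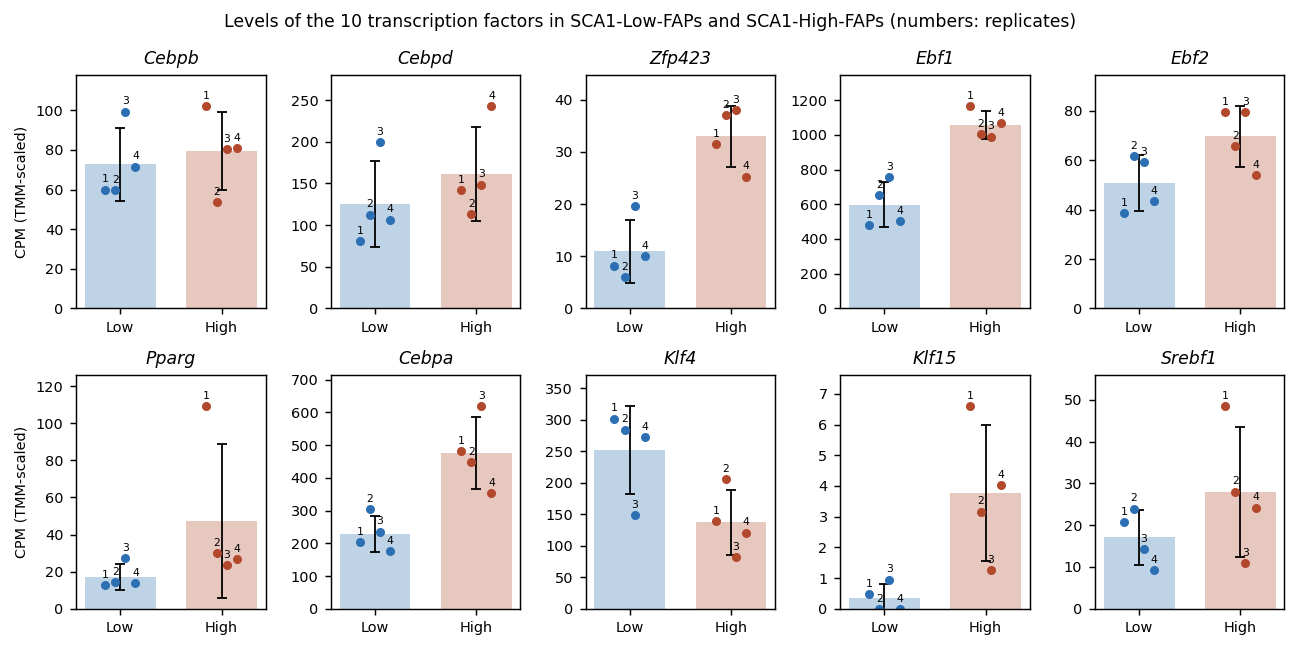
Levels of the 10 transcription factors as TMM-scaled CPM on linear axes from 0, with points for the samples (numbered by replicate), bars for group means and error bars for the SD (n = 4 per group). *Cebpa*, *Ebf1*, *Zfp423* and *Klf15* show no overlap between the groups, and replicate 1 of SCA1-High-FAPs stands at 109 CPM for *Pparg*, far above the other 7 samples.

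The commitment factors are taken first, with gene positions on GRCm38. *Ebf1* (chr11:44617317-45008091, plus strand) encodes a factor of B cell development that also promotes the fat lineage, and it was the most abundant of the 10 in both groups. It stood at 1166, 1004, 989 and 1068 CPM in SCA1-High-FAPs replicates 1 to 4 and at 480.0, 652, 758 and 503 CPM in SCA1-Low-FAPs replicates 1 to 4. The lowest SCA1-High-FAPs sample was above the highest SCA1-Low-FAPs sample, which was replicate 3. The means were 1057 ± 80.5 CPM and 598 ± 131 CPM (SD, n = 4 each), a log2 fold change of 0.82 (SE 0.16, 95% interval 0.49 to 1.15, adjusted *p* = 0.00398). Leaving out 1 library at a time gave 0.72 to 0.97, called in all 8 fits. SCA1-High-FAPs varied little for this gene, the highest sample being 1.18 times the lowest.

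*Zfp423* (chr8:87661810-87959595, minus strand) encodes a zinc finger protein that marks and commits preadipocytes. Its level was 31.5, 37.1, 38.0 and 25.3 CPM in SCA1-High-FAPs and 8.22, 5.99, 19.7 and 10.0 CPM in SCA1-Low-FAPs. The groups did not overlap, and replicate 3 of SCA1-Low-FAPs was again nearest to the other group. The means were 33.0 ± 5.86 CPM and 11.0 ± 6.02 CPM, a log2 fold change of 1.55 (SE 0.34, 95% interval 0.83 to 2.26, adjusted *p* = 0.00942). It was called in all 8 fits that left out 1 library, at 1.36 to 2.00, the highest value being without SCA1-Low-FAPs replicate 3.

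*Ebf2* (chr14:67233292-67430918, plus strand), a relative of *Ebf1* known for its part in brown and beige fat cells, stood far below it. It was measured at 79.6, 65.6, 79.3 and 53.9 CPM in SCA1-High-FAPs and at 38.7, 61.5, 59.3 and 43.6 CPM in SCA1-Low-FAPs. The ranges overlapped, through SCA1-High-FAPs replicate 4. The means were 69.6 ± 12.3 CPM and 50.8 ± 11.4 CPM, and the log2 fold change of 0.45 (SE 0.21, 95% interval 0.0052 to 0.90) did not pass after adjustment (adjusted *p* = 0.229). *Ebf1* made up 93.8% ± 1.08 of the summed *Ebf1* and *Ebf2* CPM in SCA1-High-FAPs, against 92.2% ± 0.608 in SCA1-Low-FAPs (SD, n = 4). These shares ran from 92.6% to 95.2% and from 91.4% to 92.7%, so their ranges overlapped.

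*Cebpb* and *Cebpd* encode the C/EBP factors of the first hours of adipogenesis, and both were expressed in the growing cells of either group. *Cebpb* (chr2:167688915-167690418, plus strand) stood at 102, 53.8, 80.6 and 81.1 CPM in SCA1-High-FAPs and at 59.9, 59.9, 99.3 and 71.5 CPM in SCA1-Low-FAPs. The ranges lay almost on top of each other, with means of 79.4 ± 19.8 CPM and 72.7 ± 18.6 CPM. Its log2 fold change was 0.12 (SE 0.22, 95% interval −0.34 to 0.59, adjusted *p* = 0.819). The sign turned without SCA1-High-FAPs replicate 1 (−0.027).

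*Cebpd* (chr16:15887286-15891031, plus strand) stood at 142, 113, 149 and 243 CPM in SCA1-High-FAPs and at 80.7, 113, 200 and 107 CPM in SCA1-Low-FAPs. Replicate 4 was the highest of SCA1-High-FAPs and replicate 3 of SCA1-Low-FAPs, and the ranges overlapped. The means were 162 ± 56.4 CPM and 125 ± 51.8 CPM, with a log2 fold change of 0.37 (SE 0.29, 95% interval −0.25 to 0.99, adjusted *p* = 0.516). Both genes overlap a gene on the opposite strand (*Tmem189* and *Spidr*, with 625 and 298 counts over the 8 samples), and since the strand setting of the counting is not stated, reads in the overlaps may have been set aside as ambiguous or given to either gene.

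*Cebpa* (chr7:35119293-35121928, plus strand), a gene without introns that encodes the C/EBP factor of the maturing fat cell, was the second most abundant factor in SCA1-High-FAPs. It stood there at 483, 449, 619 and 353 CPM, and at 204, 303, 236 and 176 CPM in SCA1-Low-FAPs. The lowest SCA1-High-FAPs sample (replicate 4) was above the highest SCA1-Low-FAPs sample (replicate 2). With means of 476 ± 110 CPM and 229.5 ± 55.0 CPM, the log2 fold change was 1.05 (SE 0.19, 95% interval 0.65 to 1.46, adjusted *p* = 0.00279). All 8 fits without 1 library called it, at 0.90 to 1.21. Of the summed CPM of *Cebpa*, *Cebpb* and *Cebpd* alone, *Cebpa* took 66.1% ± 9.81 in SCA1-High-FAPs, against 54.1% ± 8.92 in SCA1-Low-FAPs, and these shares overlapped (52.1% to 73.0% and 44.1% to 63.7%). *Cebpb* took 11.1% ± 2.42 and 17.2% ± 3.28, and *Cebpd* 22.8% ± 8.75 and 28.7% ± 6.58. *Cebpg*, a further C/EBP gene that these shares leave out, stood at 78.0 ± 15.8 CPM and 74.5 ± 13.2 CPM.

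*Pparg* (chr6:115360951-115490399, plus strand) encodes the nuclear receptor PPAR-gamma, the central regulator of fat cells. Its level was 109, 29.8, 23.4 and 26.8 CPM in SCA1-High-FAPs and 12.6, 14.2, 27.3 and 14.0 CPM in SCA1-Low-FAPs. Replicate 1 of SCA1-High-FAPs and replicate 3 of SCA1-Low-FAPs stood apart from the rest of their groups, and the latter lay within the SCA1-High-FAPs range. The means were 47.3 ± 41.4 CPM and 17.0 ± 6.89 CPM, and the log2 fold change of 1.45 (SE 0.51, 95% interval 0.34 to 2.56) did not pass the test (adjusted *p* = 0.115). DESeq2 gave almost the same value (1.46) and called it (adjusted *p* = 0.0206). Without SCA1-High-FAPs replicate 1 the value fell to 0.63 (adjusted *p* = 0.327), and without SCA1-Low-FAPs replicate 3 it was 1.80 (adjusted *p* = 0.0529). Of the 5 annotated protein-coding transcripts of *Pparg*, the one from the downstream start ends within a few bases of transcripts from upstream starts, so 3′ reads cannot tell these apart, while others end before that position.

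**Figure D2:**
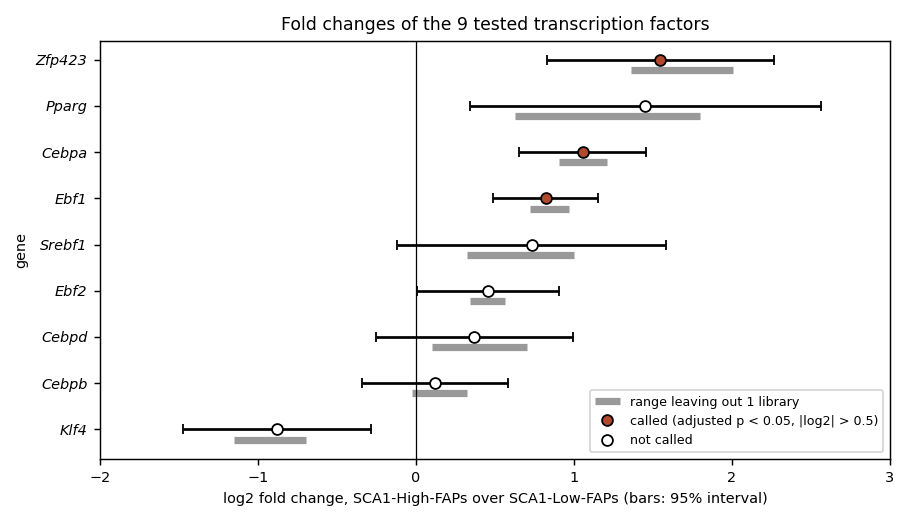
Log2 fold changes of the 9 tested transcription factors, SCA1-High-FAPs over SCA1-Low-FAPs, with 95% intervals from edgeR, filled points for called genes and grey bars for the range of values when 1 of the 8 libraries is left out. *Zfp423*, *Cebpa* and *Ebf1* were called, at 1.55, 1.05 and 0.82, the *Pparg* interval is the widest, and *Klf4* is the gene on the negative side, at −0.88.

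The 2 Krüppel-like factors lay in opposite directions. *Klf4* (chr4:55527143-55532466, minus strand), known as a pluripotency factor and as an inducer of *Cebpb* early in adipogenesis, stood at 139, 206, 81.8 and 121 CPM in SCA1-High-FAPs and at 302, 284, 149 and 272 CPM in SCA1-Low-FAPs. The ranges overlapped through replicate 2 of SCA1-High-FAPs and replicate 3 of SCA1-Low-FAPs. The means were 137 ± 52.0 CPM and 252 ± 69.6 CPM, with a log2 fold change of −0.88 (SE 0.27, 95% interval −1.47 to −0.28, adjusted *p* = 0.0729), which did not pass. It passed with DESeq2 (−0.88, adjusted *p* = 0.0153), with the replicate number as a block (−0.91, adjusted *p* = 0.00736), without SCA1-High-FAPs replicate 2 (−1.15, adjusted *p* = 0.0113) and without SCA1-Low-FAPs replicate 3 (−1.05, adjusted *p* = 0.00819).

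*Klf15* (chr6:90462576-90475238, plus strand), an inducer of *Pparg* and of the glucose transporter gene *Slc2a4* in fat cells, was close to the limit of detection. It had 14, 7, 3 and 11 counts in SCA1-High-FAPs and 1, 0, 3 and 0 counts in SCA1-Low-FAPs. Scaled to library size these were 6.59, 3.17, 1.25 and 4.03 CPM and 0.483, 0, 0.951 and 0 CPM, so the groups did not overlap although replicate 3 of each had 3 counts. Over the groups, 35 counts stood against 4, a ratio of 10.0 in CPM (95% exact binomial interval 3.58 to 38.8), which covers counting error alone and not the spread between samples. The gene did not pass the filter on low counts. Tested without the filter, its adjusted *p* was 0.123 in edgeR and, in DESeq2, 0.0575.

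*Srebf1* (chr11:60199089-60222581, minus strand) encodes SREBP-1, which is made as a membrane-bound precursor and is active once cleaved, so that its mRNA is only part of its control. It stood at 48.5, 28.0, 10.9 and 24.2 CPM in SCA1-High-FAPs and at 20.8, 24.0, 14.3 and 9.24 CPM in SCA1-Low-FAPs. Replicate 1 of SCA1-High-FAPs was the highest sample and replicate 3 of the same group was below 3 of the SCA1-Low-FAPs samples. The means were 27.9 ± 15.6 CPM and 17.1 ± 6.59 CPM, and the log2 fold change of 0.73 (SE 0.40, 95% interval −0.12 to 1.58) did not pass (adjusted *p* = 0.321). *Srebf1* ends in an overlap with *Rai1* of the opposite strand (270 counts), and its 3 coding transcripts begin at 3 starts and end at 2 positions, so that some isoforms with different starts share their 3′ end.

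Ordered by mean level, the factors in SCA1-High-FAPs ran from *Ebf1* (1057 CPM) through *Cebpa*, *Cebpd*, *Klf4*, *Cebpb*, *Ebf2*, *Pparg*, *Zfp423* and *Srebf1* to *Klf15* (3.76 CPM). The ranges of neighbours overlapped in this order except between *Ebf1* and *Cebpa*, *Cebpa* and *Cebpd*, and *Srebf1* and *Klf15*. In SCA1-Low-FAPs the order was *Ebf1* (598 CPM), *Klf4*, *Cebpa*, *Cebpd*, *Cebpb*, *Ebf2*, *Srebf1*, *Pparg*, *Zfp423* and *Klf15* (0.359 CPM), with gaps between *Ebf1* and *Klf4*, *Ebf2* and *Srebf1*, and *Zfp423* and *Klf15*. The mean of *Ebf1* was above that of 99.0% of all tested genes in SCA1-High-FAPs, against 97.8% in SCA1-Low-FAPs, and that of *Cebpa* above 97.2% and 92.6%. *Pparg* was above 62.4% and 32.0% of them, and *Zfp423* above 51.4% and 19.9%. The 10 genes summed to 1990 to 2307 CPM in SCA1-High-FAPs and to 1206 to 1563 CPM in SCA1-Low-FAPs.

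Single libraries recurred among the extremes. Replicate 1 was the highest SCA1-High-FAPs sample for 6 of the 10 genes, among them *Pparg*, *Klf15* and *Srebf1*, and replicate 3 the highest SCA1-Low-FAPs sample for 6, among them *Pparg*, *Zfp423*, *Ebf1* and *Cebpd*, as well as the lowest for *Klf4*. The same 2 libraries had the highest summed CPM of 7 markers of mature fat cells in their groups. That sum was 5420, 1945, 2497 and 1035 CPM in SCA1-High-FAPs and 191, 230, 624 and 109 CPM in SCA1-Low-FAPs, so the groups did not overlap. All tested genes of this list (5 of 7) had positive log2 fold changes, with a median of 4.49, 2 were called and *Lep* was at 0 in every sample. Among the tested genes *Retn* had at most 6 counts in an SCA1-Low-FAPs sample and passed the filter on low counts through SCA1-High-FAPs alone. *Adipoq*, the other called gene, and *Cfd* did not reach the filter's level in every SCA1-Low-FAPs sample (19, 17, 77 and 16 counts, and 16, 3, 135 and 10 counts). That group alone would not have let them in, so the sign of their values was not free of the filter. The part of fat cell content in the differences of the factors was not tested. The same 3 genes remained called without SCA1-High-FAPs replicate 1 (*Cebpa* 1.04, *Ebf1* 0.76 and *Zfp423* 1.56), and without SCA1-Low-FAPs replicate 3 (1.08, 0.97 and 2.00).

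**Figure D3:**
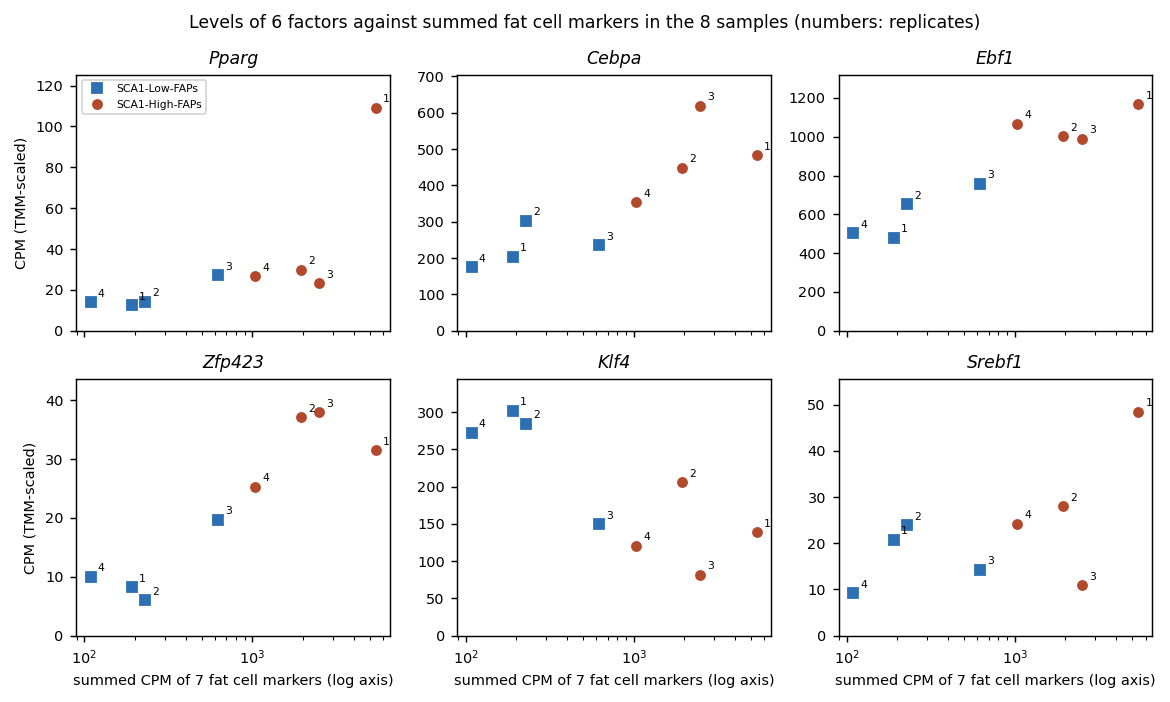
Levels (TMM-scaled CPM, linear axes from 0) of 6 transcription factors against the summed CPM of 7 fat cell markers (log axis) in the 8 samples, numbered by replicate. *Pparg* is highest in the sample with the most fat cell marker mRNA (109 CPM at 5420 CPM of markers) and at 12.6 to 29.8 CPM in the others. *Ebf1* is at 989 to 1166 CPM and *Zfp423* at 25.3 to 38.0 CPM in SCA1-High-FAPs. Within the other group both are highest (758 and 19.7 CPM) in SCA1-Low-FAPs replicate 3, its sample with the most marker mRNA (624 CPM).

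A further list of 8 cell cycle genes moved with the groups. Their mRNA was measured after 5 days of culture, and growth rate was not measured in these samples. All 8 were called lower in SCA1-High-FAPs, and in each of the 8 fits without 1 library, with a median log2 fold change of −1.18 and the lowest value for *Aurka*, a mitotic kinase, at −2.27 (adjusted *p* = 0.00109). *Aurka* had 23, 10, 9 and 27 counts in SCA1-High-FAPs, and that group alone would not have let it through the filter on low counts. *Birc5* (−1.25), *Plk1* (−1.26), *Top2a* (−0.96) and *Mki67* (−0.82) were among the called genes. Their sum was 575 to 802 CPM in SCA1-High-FAPs and 1141 to 1692 CPM in SCA1-Low-FAPs, and it was lowest of SCA1-Low-FAPs in replicate 3. Its part in the values of *Klf4* or of the other factors was not tested.

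Other factors that promote fat cell formation were higher in part. Of 23 listed, 21 were tested, 6 were called higher and 0 lower, and the median log2 fold change was 0.62. DESeq2 called 8 higher and 0 lower, and 0 genes had an unadjusted *p* under 0.05 on the lower side. Leaving out SCA1-High-FAPs replicate 3, SCA1-Low-FAPs replicate 1 or SCA1-Low-FAPs replicate 4 left 4 called. *Nfia*, a nuclear factor I gene known for brown fat, had the smallest adjusted *p*: 423, 250, 377 and 218 CPM in SCA1-High-FAPs against 101, 79.5, 104 and 82.6 CPM in SCA1-Low-FAPs, with a log2 fold change of 1.79 (SE 0.20, adjusted *p* = 0.000198). Its groups lay far apart. *Nr3c1*, the glucocorticoid receptor, stood at 0.90 (adjusted *p* = 0.00546), *Snai2* at 0.79 (adjusted *p* = 0.00953), *Tcf7l1* at 0.76 (adjusted *p* = 0.0112), *Rxra*, the partner receptor of PPAR-gamma on DNA, at 0.62 (adjusted *p* = 0.0217) and *Ppargc1a*, a coactivator of PPAR-gamma, at 1.82 (adjusted *p* = 0.0297). None of the 6 overlapped between the groups. *Ppargc1a* had 3, 6, 43 and 21 counts in SCA1-Low-FAPs, and that group alone would not have let it through the filter on low counts. For *Rxra* the means were 135 ± 18.8 CPM and 88.0 ± 2.73 CPM.

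Of 25 factors that restrain fat cell formation, 19 were tested and 2 were called higher, with a median log2 fold change of −0.12. In edgeR 0 were called lower, with 2 at an unadjusted *p* under 0.05 on that side, and DESeq2 called 0 lower and 3 higher. The called genes were *Ahr*, the aryl hydrocarbon receptor (1.45, adjusted *p* = 0.0315), and *Runx1t1*, a corepressor (0.72, adjusted *p* = 0.0348). Neither call held without SCA1-High-FAPs replicate 1 or SCA1-Low-FAPs replicate 1, 2 or 4 (0 called), and 1 was called without SCA1-High-FAPs replicate 2, 3 or 4.

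Among the remaining genes of the PPAR, C/EBP, EBF, KLF and SREBP families, 15 of 22 were tested, 1 was called higher and 0 lower, and the median log2 fold change was 0.07. On the lower side 0 genes had an unadjusted *p* under 0.05 in edgeR, and DESeq2 called 0. The called gene was *Ebf3*, at 73.5, 37.1, 74.7 and 63.1 CPM in SCA1-High-FAPs and 16.9, 34.3, 38.4 and 21.1 CPM in SCA1-Low-FAPs (log2 fold change 1.17, SE 0.29, adjusted *p* = 0.0182). Its groups overlapped through replicate 2 of SCA1-High-FAPs, and the call was lost without SCA1-High-FAPs replicate 1, SCA1-Low-FAPs replicate 1 or SCA1-Low-FAPs replicate 4, while 2 genes were called without SCA1-Low-FAPs replicate 3. *Srebf2*, which encodes the SREBP factor of sterol synthesis, was at 79.0 ± 8.91 CPM and 72.6 ± 13.2 CPM (log2 fold change 0.12, adjusted *p* = 0.791).

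Genes that PPAR-gamma and C/EBP-alpha switch on in fat cells were higher in SCA1-High-FAPs for the most part. Of 22 listed, 18 were tested, 14 were called higher and 0 lower, all 18 values were positive with an unadjusted *p* under 0.05, and the median log2 fold change was 2.68. DESeq2 called 18 higher and 0 lower. Calls fell to 8 without SCA1-Low-FAPs replicate 4 and to 9 without SCA1-High-FAPs replicate 3, SCA1-Low-FAPs replicate 1 or SCA1-Low-FAPs replicate 2. *Mgll*, a monoacylglycerol lipase gene, stood at 53.2, 43.0, 66.8 and 17.6 CPM in SCA1-High-FAPs and at 7.73, 8.17, 7.61 and 5.28 CPM in SCA1-Low-FAPs (log2 fold change 2.66, SE 0.37, adjusted *p* = 0.000612). *Retn*, the gene of the secreted protein resistin, was at 4.49 (adjusted *p* = 0.000797), *Gpd1*, of glycerol phosphate supply, at 3.41 (adjusted *p* = 0.00178), *Aqp7*, a glycerol channel, at 3.43 (adjusted *p* = 0.0022) and *Cd36*, a fatty acid transporter, at 2.81 (adjusted *p* = 0.00254). Replicate 4 had the lowest value of SCA1-High-FAPs for each of these 5 genes. In SCA1-Low-FAPs the highest sample had 6 counts for *Retn*, 8 for *Aqp7* and 20 for *Gpd1*. *Retn* and *Aqp7* passed the filter on low counts through SCA1-High-FAPs alone, so the sign of their values was set by the filter. *Gpd1*, *Cd36*, *Cfd*, *Adipoq* and *Insr* did not reach the filter's level in every SCA1-Low-FAPs sample. That group alone would not have let them in, so the sign of their values was not free of the filter. The counts of calls and the median of the list take in all these genes. With a minimum of 10 counts in every sample, 9 genes of the list were called higher. The 4 tested genes that were not called had positive values too: *Cfd* at 5.46 (adjusted *p* = 0.0534), *Fabp4* at 2.77 (adjusted *p* = 0.101), *Plin1* at 2.45 (adjusted *p* = 0.0751) and *Pex11a* at 0.95 (adjusted *p* = 0.128). *Cidec* and *Slc2a4* were below the filter, and *Pck1* and *Lep* had no count in any sample. The list takes in the fat cell markers given above.

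Genes that SREBP factors switch on were called in either direction. Of 18 listed, 15 were tested, 1 was called higher and 1 lower, and the median log2 fold change was 0.03. At an unadjusted *p* under 0.05, 5 were higher and 1 lower in edgeR, and DESeq2 called 3 higher and 1 lower. *Scd1*, a fatty acid desaturase gene that PPAR-gamma also regulates, was higher (374 ± 142 CPM against 168 ± 33.6 CPM, log2 fold change 1.15, adjusted *p* = 0.0159), with SCA1-High-FAPs replicate 4 (199 CPM) just below SCA1-Low-FAPs replicate 4 (201 CPM). *Elovl6*, a fatty acid elongase gene, was lower, at 29.2, 33.5, 21.3 and 24.6 CPM against 58.0, 55.0, 43.8 and 61.3 CPM (log2 fold change −1.01, adjusted *p* = 0.0116). The genes with a low unadjusted *p* that were not called in edgeR were *Acaca*, of the first step of fatty acid synthesis (1.02, adjusted *p* = 0.0509), *Lpin1* (0.84, adjusted *p* = 0.0610), *Insig1* (0.69, adjusted *p* = 0.0856) and *Gpam* (1.27, adjusted *p* = 0.194), all with positive values. The count called higher was 0 without SCA1-High-FAPs replicate 3 or SCA1-Low-FAPs replicate 1, 2 without SCA1-Low-FAPs replicate 4 and 3 without SCA1-High-FAPs replicate 4, and the *Elovl6* call was lost without SCA1-Low-FAPs replicate 4. Of the 5 genes that retain, escort or cleave the SREBP precursors, 0 were called, 2 had an unadjusted *p* under 0.05 in edgeR, and DESeq2 called 0. These 2 were *Insig1*, which is in both lists, and *Insig2* (0.55, adjusted *p* = 0.227), which hold the precursors back, and 1 of the 5 was called without SCA1-High-FAPs replicate 4.

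Glucocorticoids are part of the usual induction cocktail for fat cells and are not named among the components of the growth medium. Of 12 genes that they induce in many cells, 11 were tested, 1 was called higher and 1 lower, and the median log2 fold change was 0.10. At an unadjusted *p* under 0.05, 2 were higher and 1 lower in edgeR, and DESeq2 called the same numbers. The gene called higher was *Angptl4* (1.17, adjusted *p* = 0.0447), which is also in the list of PPAR-gamma targets, and the gene called lower was *Sgk1*, a kinase gene (−1.01, adjusted *p* = 0.00414). The first call was lost without any 1 of SCA1-High-FAPs replicates 1, 3 and 4 and SCA1-Low-FAPs replicates 1 and 4. *Sgk1* stood at 71.6, 54.7, 44.3 and 71.1 CPM in SCA1-High-FAPs and at 94.3, 141, 116 and 137 CPM in SCA1-Low-FAPs, without overlap.

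**Figure D4:**
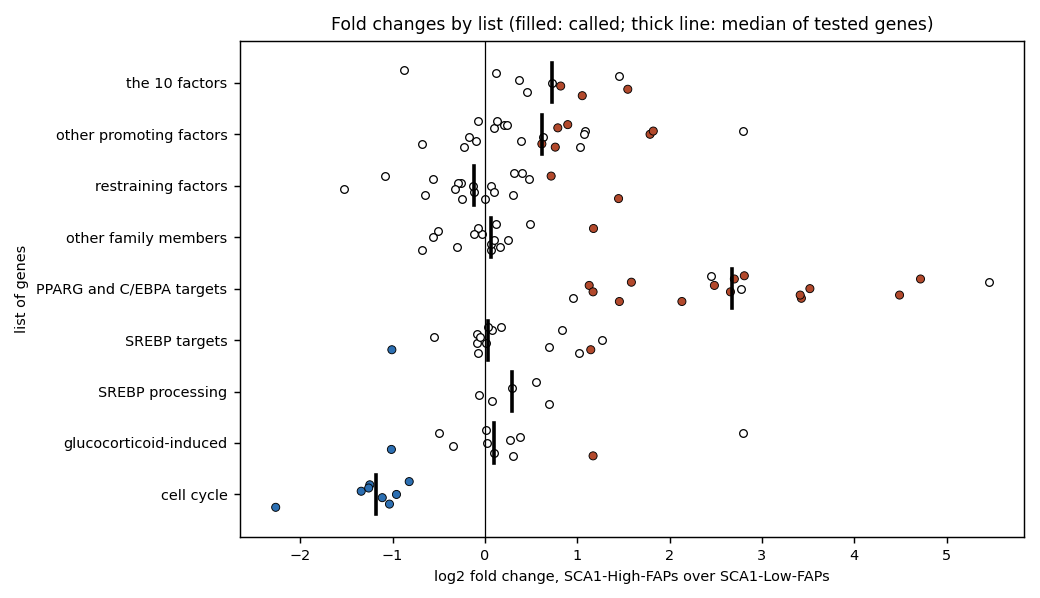
Log2 fold changes of the tested genes, SCA1-High-FAPs over SCA1-Low-FAPs, by list, with filled points for called genes and a thick line for the median of each list. PPAR-gamma and C/EBP-alpha targets have a median of 2.68, the 10 factors (9 tested) 0.73, restraining factors −0.12, SREBP targets 0.03 and cell cycle genes −1.18.

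The genes whose log2 CPM followed each factor most closely over the 8 samples are given as a description, since the samples share 2 groups and the highest of 10181 correlations is always high. For *Ebf1* these were *Acvr2a* (Pearson's r = 0.989), *Vegfd* (0.987) and *Zfp36l1* (0.987), for *Cebpa* *Efna2* (0.982), *Enpp2* (0.976) and *Nrip1* (0.975), and for *Zfp423* *Klhl28* (0.990), *Nrip2* (0.989) and *Gldn* (0.984). For *Pparg* they were *Pim3* (0.961), *Abca1* (0.946) and *Cdc42ep3* (0.942), and for *Klf4* *Cdc25b* (0.987), *Ankrd12* (0.981) and *Cit* (0.978), of which *Cdc25b* and *Cit* act in cell division. For *Srebf1* they were *Sdc2* (0.969), *Slc25a28* (0.935) and *Xpnpep3* (0.930), for *Ebf2* *Gpr27* (0.968), *Nfkbia* (0.963) and *Retsat* (0.961), for *Cebpb* *Tshz1* (0.972), *Wdr92* (0.940) and *Zfp24* (0.939), and for *Cebpd* *Pnp* (0.975), *Twsg1* (0.963) and *Il18* (0.958). Once the mean of each group was removed, r was 0.891 to 0.975 for these genes. They had been picked on the same 8 samples, so this is not a separate check.

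Between the factors themselves, the values over the 8 samples rested largely on the groups for *Cebpa* and *Zfp423*, whose r went from 0.776 to 0.027 once the group means were removed. *Cebpa* and *Ebf2* kept theirs (0.887 and 0.845). *Klf4* and *Cebpb*, and *Klf4* and *Cebpd*, varied in opposite directions within the groups (−0.737 and −0.696). These are 8 libraries of 2 groups, and no test was made.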

How the data were processed

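The authors trimmed the 3′ mRNA reads with bbduk, aligned them with STAR to mm10 and counted them on Ensembl release 93 genes with htseq-count. The deposited values are raw counts per gene. The strand setting is not given in the sources used here, and molecular identifiers are not mentioned. Of the aligned reads, 37.47% to 39.66% in SCA1-High-FAPs and 40.75% to 43.3% in SCA1-Low-FAPs had no unique alignment and were counted on no gene. This share did not overlap between the groups, and its part in the results was not tested. Of the uniquely aligned reads, 13.3% to 16.4% fell on no feature. Identifiers were named with a reference table (30934 of 31053 matched, *Ddit3* without a unique match), and positions are those of GENCODE M21 on GRCm38.

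Counts were normalised by TMM and compared in edgeR 4.0.16 (R 4.3.3) with its quasi-likelihood test in the robust form. Genes were first filtered with filterByExpr. It asks for the CPM of 10 counts at median depth in as many samples as a group holds, and for 15 counts in total. Benjamini-Hochberg adjustment was over all 10181 genes tested. The 8 samples were grouped by cell state as labelled. CPM values are TMM-scaled without a prior count, and log2 CPM for correlations had a prior count of 2. Adjusted *p*-values without a named tool come from edgeR. The tests were tried on simulated counts with 100 genes changed 4-fold and 100 changed 2-fold. Of these edgeR called 90 and 41, and it called 8 unchanged genes among 139 calls. DESeq2 called 92 and 51, and 23 unchanged genes among 166 calls. Python 3.11.15 with pandas 2.3.3 and matplotlib 3.10.9 served for tables and plots.

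The 10 genes, the gene lists and the tests were chosen with earlier results of these data known. Named were the 10 genes, up to 5 called genes per list and direction by smallest adjusted *p* with any count of 5 or fewer by name, the 3 genes most like each tested factor, *Ly6a* and the markers, of which 1 summed list is not reported here. *Ppargc1a*, *Srebf2*, *Cebpg* and *S100b* were named after their values were seen. Alternatives were DESeq2 1.42.0, RLE factors, no filter beyond 1 count, a minimum of 10 counts in all samples, a block for the replicate number, each library left out in turn, an adjusted *p* of 0.01, and CPM without TMM factors.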

Additional observations from a re-analysis of the deposited data

Results flagged for a closer look

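For each of the 10 genes, the highest and lowest sample of each group of 4 was compared with the rest of its group by the gap to the nearest sample over the whole range of the group. Of 20 groups tested, 2 samples stood past the 95% limit for 4 samples, and chance alone marks about 1 in 20 groups. Both were *Pparg* values. SCA1-High-FAPs replicate 1 stood at 109 CPM, with a gap of 0.925 of the range. SCA1-Low-FAPs replicate 3 stood at 27.3 CPM, with a gap of 0.892 of the range. Both libraries also had the highest summed fat cell markers of their groups, at 5420 and 624 CPM, and the part of this in the *Pparg* values was not tested.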

How the results depend on the processing

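*Cebpa*, *Ebf1* and *Zfp423* were called higher under every alternative. *Pparg* was called by DESeq2 alone, and *Klf4* (called lower: 1 of the 10 genes) by DESeq2, with the block and in 2 of the 8 fits without 1 library. *Cebpb* turned to −0.027 without SCA1-High-FAPs replicate 1 (0.32 without SCA1-Low-FAPs replicate 3). *Klf15* had fitted log2 values of 3.34 (DESeq2) and 3.17 (no filter), and its 39 counts over the 8 samples were too few for the main test. CPM without TMM factors moved no group mean of the 10 genes by more than its SD. Counts of calls that moved by over 1.5 times were as follows. DESeq2 gave 3 SREBP targets and 2 glucocorticoid-induced genes higher. No filter gave 2 and 2. A minimum of 10 counts in every sample gave 1 restraining factor, 9 PPAR-gamma targets and 3 SREBP targets higher. An adjusted *p* of 0.01 gave 181 genes higher and 126 lower in all, 3 promoting factors, 0 restraining factors, 0 other family members, 7 PPAR-gamma targets, 0 SREBP targets in either direction and 0 glucocorticoid-induced genes higher. The smaller number of genes tested or the stricter limit enters these counts by construction, and further causes were not tested. Without 1 library, all calls ran from 246 (without SCA1-Low-FAPs replicate 4) to 583 higher and from 159 (without SCA1-Low-FAPs replicate 1) to 434 lower, the latter of each without SCA1-Low-FAPs replicate 3. In the same fits the 10 genes gave 3 to 3 higher and 0 to 1 lower, promoting factors 4 to 6, restraining factors 0 to 2, other family members 0 to 2, PPAR-gamma targets 8 to 15, SREBP targets 0 to 3 higher and 0 to 1 lower, SREBP processing 0 to 1, glucocorticoid-induced genes 0 to 1 higher and 1 to 1 lower, and cell cycle genes 8 to 8 lower.

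The replicate numbers occur in both groups. Once group means were removed, same-numbered samples correlated at −0.0502 to 0.00673 across genes (mean −0.0184, others 0.00507). Single pairs of other numbers ran from −0.282 to 0.255. These values do not tell which samples share a mouse. With this number as a block, 420 genes were called higher and 277 lower, 3 and 1 of the 10 genes, and 1 restraining factor higher. *Klf4* was at −0.91 (adjusted *p* = 0.00736 in edgeR) and *Pparg* at 1.19 (adjusted *p* = 0.168).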
